A study of Mus musculus with 2 samples.

Results

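The 7 mouse microRNA genes described here are Mir138-1, Mir138-2, Mir129-1, Mir129-2, Mir135a-1, Mir135a-2 and Mir135b, which belong to neuron-enriched families that act at synapses. They were selected by gene symbol from the 2202 microRNA genes in the count tables, by a rule that used no level in these samples. Earlier results of these data were known when they were chosen. The samples are the left cerebral cortex of female mice aged 10 days, of the hybrid strain B6CASTF1/J, with no treatment named in the labels. A single group of 2 animals was sequenced, and total RNA was made into libraries of RNA shorter than 30 bases. The labels number the females differently but give them the same donor entry. They are called animal 1 and animal 2 by their biological replicate number, and they are taken as separate animals. With 1 group there is no contrast between conditions, so the data give levels and the spread between the animals.

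A microRNA gene is transcribed as a hairpin, from which a duplex of a 5p and a 3p arm is cut. One arm of the duplex is loaded into an Argonaute protein, and bases 2 to 8 of that arm, the seed, pair with messenger RNAs that are then repressed. In neurons some microRNAs are held in dendrites, where they restrain the local synthesis of synaptic proteins. The 5p arm of mir-138 is known from rat hippocampal neurons to limit the size of dendritic spines through Lypla1, which encodes an enzyme that removes palmitate from proteins. The 5p arm of mir-129 is known from rodent hippocampal neurons to repress Kcna1, which encodes a potassium channel subunit, and to take part in the downscaling of synapses. The mir-135 family is known in mouse serotonergic neurons to repress the serotonin transporter, and in rodent hippocampal neurons to repress complexins, which act in vesicle release.

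The mature sequences show which whole arms related genes have in common. They are RefSeq's, on GRCm38.p6, are written 5′ to 3′, and carry the seed in capitals. The hairpins of all 7 genes and 9 distinct mature sequences matched by symbol. The 3 sequences held by 2 genes each are these.
miR-138-5p: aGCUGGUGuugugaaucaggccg
miR-129-5p: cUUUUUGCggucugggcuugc
miR-135a-5p: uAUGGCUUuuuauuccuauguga
The sequences held by 1 hairpin each are these.
miR-138-1-3p: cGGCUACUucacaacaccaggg
miR-138-2-3p: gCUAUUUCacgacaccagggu
miR-129-2-3p: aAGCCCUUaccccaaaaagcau
miR-135a-1-3p: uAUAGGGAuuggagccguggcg
miR-135a-2-3p: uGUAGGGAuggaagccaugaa
miR-135b-3p: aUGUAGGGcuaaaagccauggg
The 3p arm of Mir129-1 and the 5p arm of Mir135b have no entry in the table, so these 9 sequences are not all arms of the 7 genes. The seed letters of the listed arms were therefore also sought in the hairpins, on the hairpin's own strand. AUGGCUU, the seed of miR-135a-5p, stands in the hairpins of Mir135a-1, Mir135a-2 and Mir135b, and in 0.796% of the 1005 hairpins of the table. AGCCCUU, the seed of miR-129-2-3p, stands in the hairpins of both Mir129 genes, and in 1.09% of all hairpins. Outside the 7 genes, no listed mature microRNA among 1738 entries has a seed identical to one of the 9.

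The counts are per hairpin gene and do not say which arm was read. The hairpins show why copies are hard to separate. They are given 5′ to 3′ with the longest run that a hairpin shares with its copy in capitals.
Mir138-1: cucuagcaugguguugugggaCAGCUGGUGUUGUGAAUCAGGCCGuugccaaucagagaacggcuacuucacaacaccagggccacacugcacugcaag
Mir138-2: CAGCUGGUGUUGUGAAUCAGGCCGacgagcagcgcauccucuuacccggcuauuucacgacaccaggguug
Mir129-1: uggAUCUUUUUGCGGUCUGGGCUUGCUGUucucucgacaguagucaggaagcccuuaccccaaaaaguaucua
Mir129-2: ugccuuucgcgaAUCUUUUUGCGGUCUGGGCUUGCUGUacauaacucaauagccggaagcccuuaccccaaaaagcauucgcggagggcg
Mir135a-1: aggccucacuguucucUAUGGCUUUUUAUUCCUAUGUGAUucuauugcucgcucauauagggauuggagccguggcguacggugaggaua
Mir135a-2: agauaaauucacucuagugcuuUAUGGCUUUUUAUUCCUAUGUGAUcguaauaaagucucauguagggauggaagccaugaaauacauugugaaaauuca
The shared run was 24 bases in the Mir138 pair, 26 in the Mir129 pair and 24 in the Mir135a pair. In each pair it covers the whole 5p arm, so a read inside it fits both genes. Mir135b is related to the Mir135a genes but shares shorter runs, of 14 bases with Mir135a-1 and 13 with Mir135a-2. Its hairpin is given with the run it shares with Mir135a-1 in capitals.
Mir135b: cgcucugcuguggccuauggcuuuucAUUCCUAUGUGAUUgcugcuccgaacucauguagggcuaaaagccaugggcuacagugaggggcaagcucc

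Windows of 22 bases, about the length of a microRNA, were compared with all 1005 hairpins of the RefSeq table. Of the windows, 5 of 52 in Mir129-1 and 5 of 69 in Mir129-2 stood in another hairpin on the same strand, as did 3 of 78 in Mir138-1, 3 of 50 in Mir138-2, 3 of 69 in Mir135a-1 and 3 of 79 in Mir135a-2. None of the 76 windows of Mir135b did. Positions outside annotated hairpins were not searched. The deposited tables keep reads that fit several positions separate from the gene rows, with 4850682 such reads in animal 1 and 3454278 in animal 2. How many of those came from the shared arms cannot be read from the tables, so the levels of the 6 paired genes are uncertain and may be too low. Their counts may rest mostly on the 3p arms and on reads that reach past the shared run. The printed Mir129 hairpins also share most bases of miR-129-2-3p, in a run shorter than the 22-base window. A 3p read of this pair that is cut short may therefore fit both Mir129 genes.

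**Figure D1:**
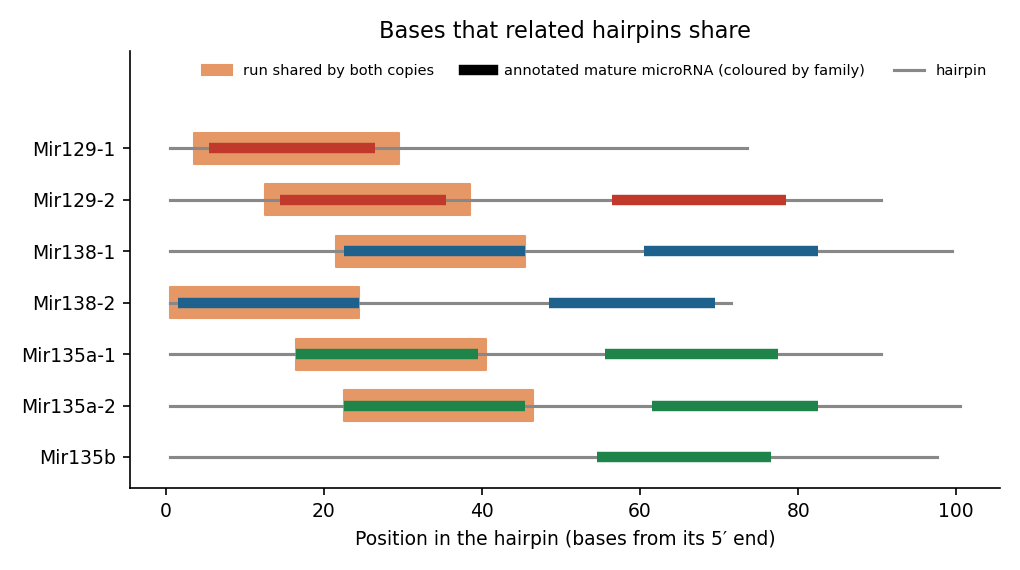
Hairpins of the 7 genes, drawn by position in bases from the 5′ end, with annotated mature arms as thick coloured bars and the run shared by a pair of copies as an orange box. The shared run of 24 or 26 bases covers the 5p arm in the 3 pairs, and Mir135b has no such run.

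The genes lie at 7 separate places in the genome (mm10 coordinates, annotation GENCODE M21). Mir138-1 (ENSMUSG00000065414.1, chr9:122682876-122682974, plus strand) lies in an exon of the transcribed pseudogene Gm47135. Mir138-2 (ENSMUSG00000065512.3, chr8:94324311-94324381, plus) lies in an exon of the long noncoding RNA gene C78859. Mir129-1 (ENSMUSG00000065469.1, chr6:29022619-29022691, plus) lies in an exon of the long noncoding RNA gene Gm3294.

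Mir129-2 (ENSMUSG00000065511.1, chr2:94241364-94241453, minus) lies in an intron of the long noncoding RNA gene Mir670hg, and Mir129b is annotated on the other strand of the same place. Mir135a-1 (ENSMUSG00000065407.1, chr9:106154124-106154213, plus) lies in an intron of D030055H07Rik and opposite an exon of Glyctk, which encodes glycerate kinase. Mir135a-2 (ENSMUSG00000065524.1, chr10:92072086-92072185, minus) lies in an intron of Rmst, a long noncoding RNA known from neural precursors. Mir135b (ENSMUSG00000065435.1, chr1:132198088-132198184, plus) lies in introns of the coding genes Lemd1 and AC124108.1.

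On the gene's own strand, 3806078 reads fell on microRNA genes in animal 1 and 2602935 in animal 2, which were 33.5% and 30.4% of all reads. The tissue label was checked with markers. Neuronal microRNAs held 3.69% and 3.82% of counted reads in animals 1 and 2, with 5 of 8 detected. Those not detected were Mir124a-1, Mir124a-2 and Mir124a-3, the highest of them with 13 reads in animal 1 and 7 in animal 2. Reads that fit several of these copies would be kept out of the gene rows. Their low counts therefore do not show that the mature microRNA is scarce. Endothelial Mir126a and Mir126b together held 2.89% and 0.826%, with Mir126b at 0 reads. Oligodendrocyte genes held 0.119% and 0.164%, smooth muscle and pericyte genes 0.315% and 0.452%, and microglial and blood genes 0.159% and 0.194%. Erythroid genes held 0.00780% and 0.00465%, and Mir204 of the choroid plexus 0.0865% and 0.0751%. In tissue, fewer cells of a type and less RNA per cell cannot be told apart.

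All 7 genes were present in both animals. Each reached the detection threshold of 10 CPM (counts per 1000000 reads that fell on microRNA genes) in both libraries, which 13.9% of all 2202 genes did. Since the genes were selected as neuron-enriched, their count is given as a description. At 100 CPM 5 of the 7 were detected. Their summed share of counted reads was 0.589% for animal 1 (exact Clopper-Pearson 95% interval 0.581 to 0.596) and 0.432% for animal 2 (interval 0.424 to 0.440), which averaged 0.510% ± 0.111 (SD, n = 2). Intervals cover counting error only, and an SD over 2 animals rests on 1 difference. A read covers a whole mature microRNA, so the levels below were not divided by hairpin length. With that division the order of the 7 means was the same.

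The Mir138 genes had the largest counted level of the families. Both genes hold the 5p arm that acts on dendritic spines, so their counts are not a level of that arm. Their share of counted reads was 0.402% for animal 1 (95% interval 0.395 to 0.408) and 0.350% for animal 2 (interval 0.343 to 0.357), which averaged 0.376% ± 0.0368 (SD, n = 2). Mir138-1 had 10904 reads in animal 1 and 6434 in animal 2, or 2865 and 2472 CPM, a mean of 2668 ± 278. Mir138-2 had 4387 and 2668 reads, or 1153 and 1025 CPM, a mean of 1089 ± 90.3. Mir138-1 stood above Mir138-2 in both animals, and the values of these genes did not overlap. By mean CPM they ranked 67 and 97 among all genes.

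The Mir129 genes came next. Both hold the 5p arm that acts on the potassium channel gene Kcna1, so their counts are not a level of that arm. The family's share of counted reads was 0.162% for animal 1 (95% interval 0.158 to 0.166) and 0.0626% for animal 2 (interval 0.0596 to 0.0657), which averaged 0.112% ± 0.0704 (SD, n = 2). Mir129-2 had 4912 reads in animal 1 and 1153 in animal 2, or 1291 and 443 CPM, a mean of 867 ± 599. Mir129-1 had 1263 and 477 reads, or 332 and 183 CPM, a mean of 258 ± 105. Both genes were higher in animal 1, and Mir129-2 stood above Mir129-1 in both animals. They ranked 112 and 171.

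The Mir135 genes, whose family acts on the serotonin transporter and on complexins, were the lowest. All 3 together took 0.0247% of the counted reads for animal 1 and 0.0200% for animal 2, which averaged 0.0224% ± 0.00336 (SD, n = 2). Mir135b had 699 and 371 reads, or 184 and 143 CPM, a mean of 163 ± 29.1. Mir135a-1 had 171 and 84 reads, or 44.9 and 32.3 CPM, a mean of 38.6 ± 8.95. Mir135a-2 had 71 and 65 reads, or 18.7 and 25.0 CPM, a mean of 21.8 ± 4.47. Mir135b, which has no copy, had more counted reads than either Mir135a gene in each animal. Reads inside the run that the Mir135a genes share may be missing from their counts, and Mir135b has no run of that length. The excess in counted reads therefore does not show which gene of the family is the most abundant. Mir135a-2 alone of the 7 genes had its higher CPM in animal 2. The ranks of Mir135b, Mir135a-1 and Mir135a-2 were 190, 251 and 281.

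**Figure D2:**
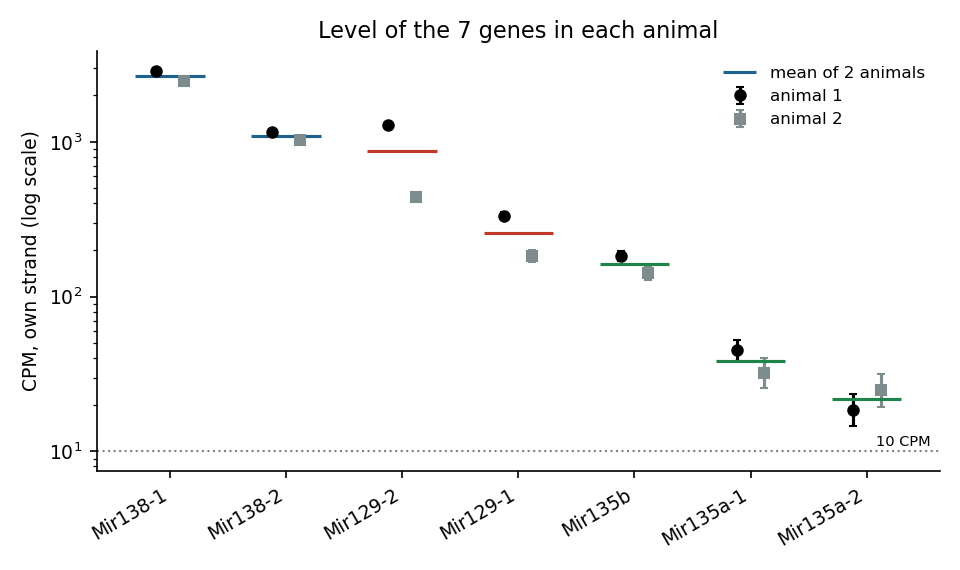
CPM of each gene on a log axis, with animal 1 as circles, animal 2 as squares, exact 95% counting intervals as bars and the mean of both animals as a coloured line (blue for Mir138, red for Mir129, green for Mir135). The Mir138 genes lie close together between animals, at 2865 and 2472 CPM for Mir138-1, while Mir129-2 lies at 1291 and 443 CPM.

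By mean CPM the order was Mir138-1, Mir138-2, Mir129-2, Mir129-1, Mir135b, Mir135a-1 and Mir135a-2. The order held in both animals with 1 exception: Mir129-2 was above Mir138-2 in animal 1 and below it in animal 2. Of the neighbours in that order, Mir138-2 and Mir129-2 overlapped between animals, since the lowest value of Mir138-2 was 1025 CPM and the highest of Mir129-2 was 1291. Mir129-1 and Mir135b overlapped as well, at 183.3 CPM in animal 2 for Mir129-1 and 183.7 CPM in animal 1 for Mir135b. The other neighbours did not overlap. Mir138-1 was 2.45 times Mir138-2 by mean CPM, Mir129-2 was 3.37 times Mir129-1, Mir135b was 4.23 times Mir135a-1 and Mir135a-1 was 1.77 times Mir135a-2. The ratio of Mir135b to Mir135a-1 sets a gene without a copy against a gene whose shared arm may be left uncounted.

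**Figure D3:**
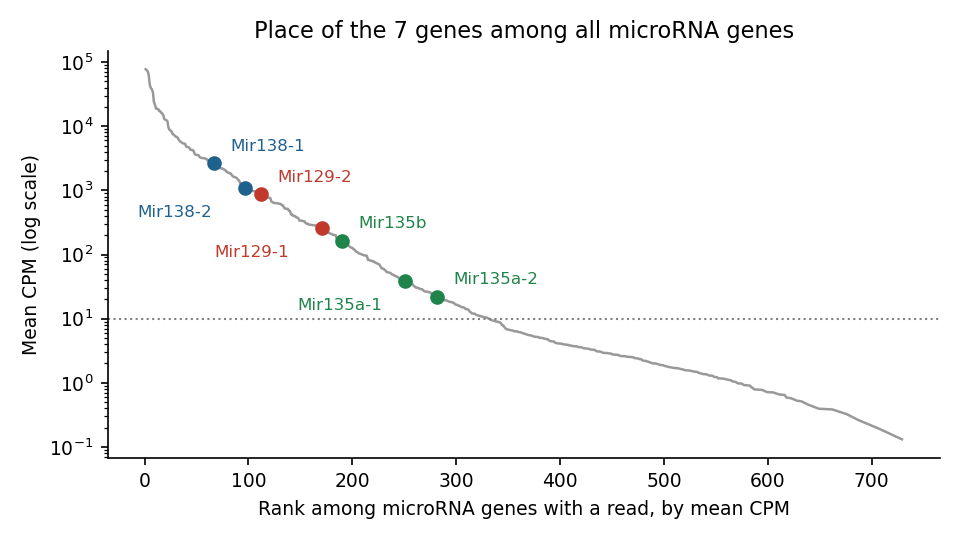
Mean CPM of every microRNA gene with a read, on a log axis, against its rank by mean CPM, with the 7 genes marked in the colours of their families and 10 CPM as a dotted line. The genes run from rank 67 for Mir138-1 to rank 281 for Mir135a-2, all above the line.

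The genes closest in level, meaning 1 rank above and 1 below by mean CPM over 2 animals, were these. Mir138-1 stood between Mir125b-1 (2683 CPM) and Mir107 (2666 CPM). Mir138-2 stood between Mir21a (1112 CPM) and Mir29a (1089 CPM), a microRNA known to rise in the maturing brain. Mir129-2 stood between Mir673 (887 CPM) and Mir467d (853 CPM), and Mir129-1 between Mir483 (259.9 CPM) and Mir3102 (251 CPM). Mir135b stood between Mir873a (166.1 CPM) and Mir214 (163.1 CPM), Mir135a-1 between Mir494 (39.9 CPM) and Mir26a-2 (38.5 CPM), and Mir135a-2 between Mir3064 (22.9 CPM) and Mir670 (21.7 CPM).

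Between the libraries, 3 of the 7 genes differed beyond counting noise. The Mir129 genes were both higher in animal 1, Mir135a-2 was higher in animal 2, and the Mir138 genes, Mir135b and Mir135a-1 did not pass the test. The test was an exact conditional binomial test after scaling with TMM, two-sided, with Benjamini-Hochberg adjustment over 531 genes. It compares these 2 libraries and no conditions. The same test called 51.6% of all genes tested, 26.9% higher in animal 1 and 24.7% higher in animal 2, so 3 of 7 is close to the background. The median absolute log2 ratio was 0.27 over the 7 genes and 0.51 over all tested genes.

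Mir129-2 was 2.53-fold higher in animal 1 (95% interval 2.37 to 2.70), a log2 ratio of 1.34 (exact binomial test, adjusted p = 6.23e-209). Its absolute log2 ratio stood at percentile 86.4 of all tested genes. Mir129-1 was 1.57-fold higher in animal 1 (1.41 to 1.75), a log2 ratio of 0.65 (exact binomial test, adjusted p = 1.65e-17), at percentile 61.8. Under every scaling tried both stayed higher in animal 1 by the test, with log2 ratios from 1.29 to 1.54 for Mir129-2 and from 0.60 to 0.86 for Mir129-1. The Mir129 family had 0.404 reads per read of the Mir138 family in animal 1 and 0.179 in animal 2, a ratio that needs no scaling between libraries. Beside this difference, endothelial Mir126a stood at 2.89% of counted reads in animal 1 and 0.826% in animal 2, with Mir126b at 0 reads. The smooth muscle and pericyte markers went the other way, at 0.315% and 0.452%. The neuronal markers stood at 3.69% and 3.82%. The part of these markers in the difference was not tested.

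For the Mir138 genes the intervals of the difference were narrow. Mir138-1 had a log2 ratio of animal 1 over animal 2 of 0.01 (95% interval -0.03 to 0.05; exact binomial test, adjusted p = 0.779), and Mir138-2 one of -0.03 (-0.10 to 0.04; adjusted p = 0.466). At this scaling the intervals reach 1.04-fold for Mir138-1 and 1.07-fold for Mir138-2. Their signs and calls depended on that scaling. With library totals only, which moved the median log2 ratio of all tested genes from 0.04 to 0.25, both passed the exact binomial test as higher in animal 1, Mir138-1 at 0.21 (adjusted p = 1.65e-20) and Mir138-2 at 0.17 (adjusted p = 4.81e-06). With DESeq2 size factors, where that median was -0.01, Mir138-1 stood at -0.04 (adjusted p = 0.127) and Mir138-2 passed as higher in animal 2, at -0.08 (adjusted p = 0.0352). Without a filter on low counts, where that median was 0.12, Mir138-1 passed as higher in animal 1, at 0.06 (adjusted p = 0.0265), and Mir138-2 stood at 0.02 (adjusted p = 0.843). Whether the Mir138 genes differ between these libraries thus depends on the scaling and the filter.

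The Mir135 genes rest on fewer reads, and their intervals were wider. Mir135b had a log2 ratio of 0.16 (95% interval -0.02 to 0.35; exact binomial test, adjusted p = 0.144). Mir135a-1 had one of 0.27 (-0.11 to 0.67; adjusted p = 0.271). Mir135a-2 was 1.54-fold higher in animal 2 (95% interval 1.08 to 2.19), a log2 ratio of -0.62 (exact binomial test, adjusted p = 0.0267) from 71 and 65 reads. This call was lost with library totals only, where the log2 ratio was -0.42 (adjusted p = 0.158), and without a filter on low counts, where it was -0.58 (adjusted p = 0.0614). With library totals only, Mir135b and Mir135a-1 passed the test as higher in animal 1, at 0.36 and 0.47.

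**Figure D4:**
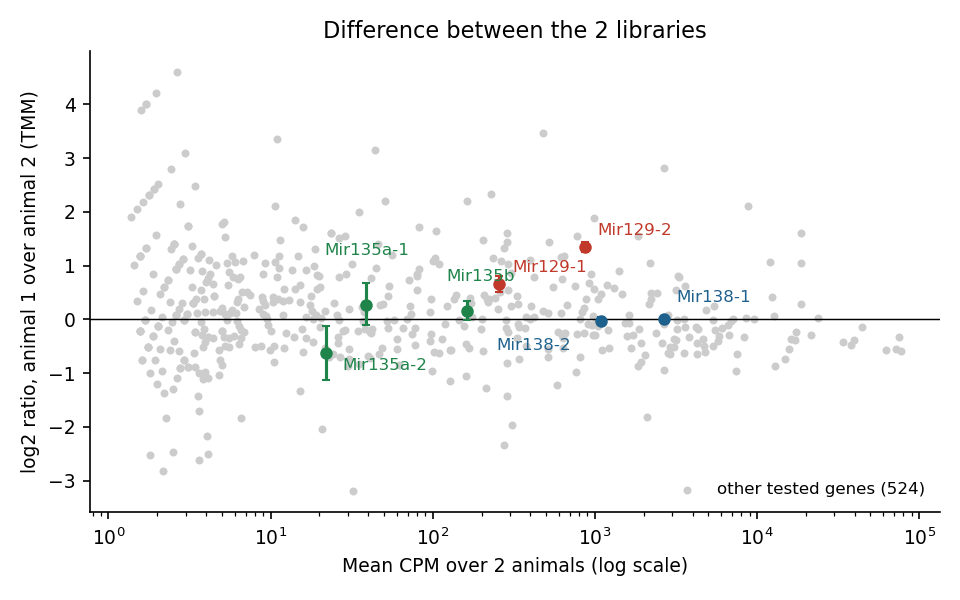
Log2 ratio of animal 1 over animal 2 after TMM against mean CPM on a log axis, with the 7 genes in colour and their exact 95% intervals as bars, and 524 other tested genes in grey. Mir129-2 lies at 1.34 and Mir129-1 at 0.65, Mir135a-2 lies at -0.62, and the Mir138 genes lie at 0.01 and -0.03; the sign and call of the Mir138 genes change with the scaling.

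The share that each copy holds within its family does not depend on scaling between libraries. Mir138-1 held 71.3% of the reads counted to the Mir138 genes in animal 1 (10904 of 15291, 95% interval 70.6 to 72.0) and 70.7% in animal 2 (6434 of 9102, 69.7 to 71.6). The difference was 0.622 percentage points (Fisher's exact test, two-sided, adjusted p = 0.30 over 4 comparisons). Mir135b held 74.3% of the Mir135 reads in animal 1 (699 of 941, 71.4 to 77.0) and 71.3% in animal 2 (371 of 520, 67.2 to 75.2), a difference of 2.94 points (Fisher's exact test, adjusted p = 0.30). These shares did not differ beyond counting noise. The share of Mir135b may be too high in both animals, since reads of the arm shared by the Mir135a genes may be missing from the total.

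The other shares did differ between the libraries. Mir129-2 held 79.5% of the Mir129 reads in animal 1 (4912 of 6175, 95% interval 78.5 to 80.5) and 70.7% in animal 2 (1153 of 1630, 68.5 to 72.9), a difference of 8.81 points (Fisher's exact test, adjusted p = 4.83e-13). Mir135a-1 held 70.7% of the Mir135a reads in animal 1 (171 of 242, 64.5 to 76.3) and 56.4% in animal 2 (84 of 149, 48.0 to 64.5), a difference of 14.3 points (Fisher's exact test, adjusted p = 0.00904). The counted reads of the copies in these pairs thus moved unequally. Reads inside the run that each pair shares may be missing, so these are not shares of all reads from each gene. With 2 animals, no spread of these differences over animals can be given.

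**Figure D5:**
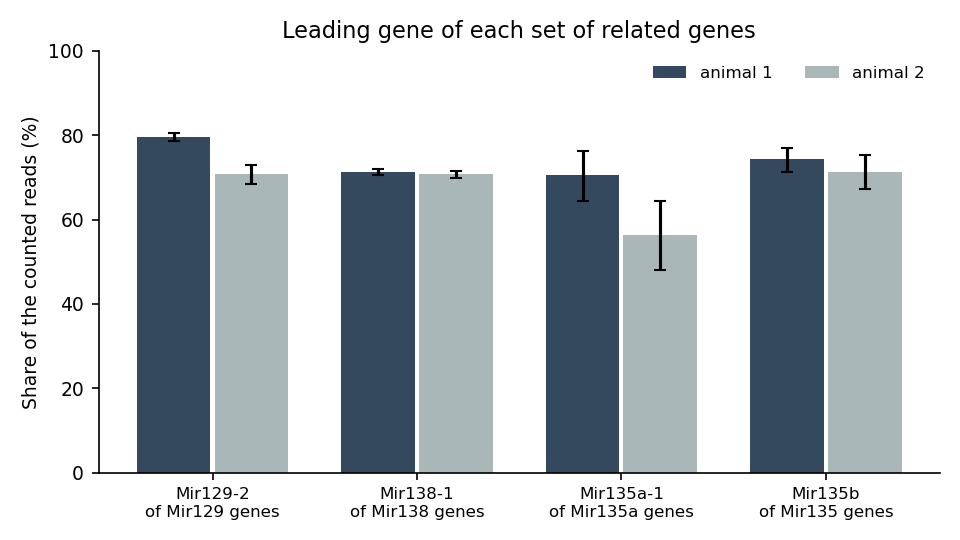
Share of counted reads that the leading gene holds among related genes, in percent from 0 to 100, for animal 1 (dark bars) and animal 2 (light bars), with exact 95% counting intervals. The share of Mir138-1 is 71.3% and 70.7%, while that of Mir129-2 is 79.5% and 70.7% and that of Mir135a-1 is 70.7% and 56.4%.

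The level of Mir129-2 depended on counting by strand. On the opposite strand Mir129b (chr2:94241378-94241442, plus) covers 65 of the hairpin's 90 bases, both mature arms of Mir129-2 at least in part. In the unstranded column Mir129-2 had 28 reads in animal 1 and 9 in animal 2, or 0.570% and 0.781% of its own-strand reads, and Mir129b had 0. On its own strand Mir129b had 6 and 3 reads, or 1.58 and 1.15 CPM. The strand opposite Mir129b held 4884 and 1144 reads, which with the 28 and 9 above make up all own-strand reads of Mir129-2. Tested in the unstranded column, the difference of Mir129-2 between the libraries was lost (log2 ratio 0.85, exact binomial test, adjusted p = 0.209). The other 6 genes had no read on the opposite strand in either animal, and their own-strand and unstranded counts were equal.

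Few of the nearest microRNA genes had many reads, and Mirlet7g was the exception. Mir670 lies 19.8 kb from Mir129-2 on the same strand, within the transcript unit Mir670hg named for it, and had 73 and 63 reads, or 19.2 and 24.2 CPM. Mir670 had a log2 ratio of animal 1 over animal 2 of -0.54 (exact binomial test, adjusted p = 0.0627), against 1.34 for Mir129-2. Mirlet7g lies 24.6 kb from Mir135a-1 on the same strand and stood at 54763 and 70766 CPM. Mir1251 lies 65.0 kb from Mir135a-2 on the same strand and had 12 and 7 reads. The nearest listed microRNA genes to Mir138-1, Mir138-2, Mir129-1 and Mir135b lie at 409, 181, 128 and 699 kb and had 0 reads in both libraries.

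Other microRNAs reported to act at dendrites or synapses, or enriched in neurons, were taken as a list of 42 genes, all found in the tables. Of these, 33 (78.6%) were detected, beside 13.9% of all 2202 genes. The list was chosen from general knowledge with earlier results of these data known, so its counts are given as a description. The 9 not detected include the Mir124a copies and Mir9-2, whose counts would lack reads that fit several copies. The list also holds Mir219a-1, Mir219a-2 and Mir223, which are among the oligodendrocyte or the microglial and blood markers above. The 33 detected genes had a median of 774 CPM, against 258 CPM for the 7 genes and 329 CPM for all detected genes. Reads of shared arms may be missing from the paired genes among the 7. These medians therefore do not show which set is more abundant. By mean CPM, 9 of the 42 stood above Mir138-1. Mir128-1 led at 15292 and 17136 CPM in animals 1 and 2, followed by Mir125a at 16964 and 6996 CPM. Mir324 stood at 10193 and 8850 CPM. Mir137, known for its part in neuronal maturation, stood at 9278 and 7888 CPM, and Mir191 at 7891 and 8635 CPM. By the exact binomial test 14 of 40 genes were higher in animal 1 and 13 were higher in animal 2, or 27 in all, beside the 51.6% of all tested genes that were called (26.9% and 24.7% by direction). The list's median log2 ratio was -0.01, against 0.04 over all tested genes.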

How the data were processed

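MicroRNA sequencing of 2 libraries was used. The deposited tables hold whole-number read counts per microRNA gene in 3 strand columns, with build mm10 and annotation M21 per the notes deposited beside them. The aligner and counter, not given in the sources used here, set how reads that fit several positions were handled. The 4 rows of unassigned reads entered no library size and no test. Of all reads in animal 1, 17.9% were unmapped, 42.7% fitted several positions and 5.79% fell outside the listed genes. For animal 2 the numbers were 23.5%, 40.4% and 5.62%.

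All gene IDs were paired with M21 symbols, and the own-strand column was used. CPM, shares and exact intervals were computed in Python 3.11.15 with scipy 1.17.1. TMM factors (1.07 and 0.932) came from edgeR 4.0.16 in R 4.3.3. The 531 genes with at least 10 counts over both libraries were tested with an exact conditional binomial test at 0.05; log2 ratios had 0.5 added to each count. The procedure was tested on simulated counts that held counting noise and no spread between animals. It called 2.4% of unchanged genes, 52% of genes changed 1.5-fold and 73.5% of genes changed 2-fold. The libraries were not 1 library deposited again, since a chi-square test over genes reached 198073 (530 degrees of freedom). With 1 group there is no contrast for edgeR's quasi-likelihood test.

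Sequences are RefSeq's, whose hairpin coordinates equal those of M21 for all 7 genes. Named genes are the 7, their rank neighbours and the top 5 of the synaptic list; genes near the 7 were added after values were seen. The members and lists were chosen with earlier results of these data known. Alternatives were other scalings, no filter, the unstranded column, other thresholds and denominators, and each library left out.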

Additional observations from a re-analysis of the deposited data

Results flagged for a closer look

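Reads outside the comparisons above were found in 2 places. The strand opposite Mir129-2 held 6 reads in animal 1, above the 3 reads that a count of 0 allows, and 3 in animal 2; they are the reads counted to Mir129b. Reads mapped to several positions made up 42.7% of all reads in animal 1 and 40.4% in animal 2, and the 5p arms of 6 of the 7 genes fit more than 1 hairpin. The tables give no gene for these reads.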

How the results depend on the processing

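Leaving aside the omission of 1 library, 62 of 91 alternative values kept their direction and side of the threshold or stayed within 1 SD or 1.5 times. With library totals only, 6 of the 7 genes were higher in animal 1 and 0 in animal 2, beside 189 and 91 of all 531 genes tested (143 and 131 with TMM), Mir138-2 turned to a log2 ratio of 0.17, and 8 of the synaptic list were higher in animal 2. With DESeq2 size factors, 2 of the 7 were higher in animal 2 and Mir138-1 turned to -0.041. Without the filter, 0 of the 7 were higher in animal 2 and Mir138-2 turned to 0.0157. In the unstranded column, which loses the reads that overlap Mir129b, 1 of the 7 was higher in animal 1, the Mir129 share fell to 0.0284% and the share of Mir129-2 within its family differed by 0.317 points (Fisher's exact test, adjusted p = 0.852); the Mir135a share was 0.00651%. Over all reads in the tables, a larger denominator, the shares were 0.121% for Mir138, 0.0367% for Mir129, 0.00194% for Mir135a, 0.00525% for Mir135b, 0.00719% for Mir135 and 0.164% for the 7 genes. With 1 library left out, which with 2 animals leaves the value of the other, Mir129-2 ran from 443 to 1291 CPM, the number detected was 7 either way, and shares ran from 0.350 to 0.402% for Mir138, 0.0626 to 0.162% for Mir129, 0.00572 to 0.00636% for Mir135a, 0.0143 to 0.0184% for Mir135b, 0.0200 to 0.0247% for Mir135 and 0.432 to 0.589% for all 7. No paired analysis was possible because there is 1 group. Depth limits the Mir135a genes most.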

Other observations

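The hairpins of the 7 genes differ in base composition. GC content was 57.7% in Mir138-2, 54.5% in Mir138-1, 53.6% in Mir135b, 53.3% in Mir129-2, 47.9% in Mir129-1, 46.7% in Mir135a-1 and 33.0% in Mir135a-2, against a median of 51.7% over 1005 mouse hairpins of RefSeq. Only 2.19% of those hairpins had a lower GC content than Mir135a-2. Aligned over their whole length, the hairpins of the Mir138 pair had 54.5% identical positions, those of the Mir129 pair 67.0% and those of the Mir135a pair 67.0%.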
